A study of Mus musculus with 10 samples.

Results

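The genes described here are 53 genes whose products copy DNA in S phase, chosen by name as rows of the gene counts: the 6 subunits of the origin recognition complex, the 6 subunits of the MCM2-7 helicase, helicase loading and activation factors, replicative polymerases and primase, the sliding clamp and its loader, single-strand DNA binding proteins, Okazaki fragment enzymes, nucleotide synthesis enzymes, and factors that copy chromatin and DNA methylation. They are 53 of the 53379 genes in the files, and 51 had enough reads to be tested. Expression was measured by RNA-seq in the neocortex of embryos at embryonic day 16 (E16), in 3 embryos of the genotype cKO-Cdkn1c-MADM-7 (cKO) and 7 of control MADM-7, labelled as of CD1 strain background and held in a mixed C57BL/6J, CD1 background. All embryos carried Emx1-Cre, which recombines in dorsal telencephalic progenitors and their descendants, together with the MADM-7 cassettes, which mark rare cells after recombination between the chromosome 7 homologs. In the cKO embryos the maternal and the paternal chromosome 7 each also carried Cdkn1c-flox. These embryos are labelled KO at the Cdkn1c locus, while the controls are labelled control. In both genotypes green, red and yellow MADM-labelled cells were sorted into 1 pool of 400 cells per embryo, so green and red cells with both chromosome 7 copies from 1 parent are mixed with yellow cells. Each library holds all stages of the lineage at once, and a change in the share of cycling cells cannot be told apart from a change in RNA per cell.

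Replication is prepared before S phase, when the origin recognition complex with Cdc6 and Cdt1 loads MCM2-7 rings onto DNA, a step that geminin (Gmnn) blocks by holding Cdt1. At the start of S phase Cdc7-Dbf4 kinase, Cdc45 and the GINS complex turn each ring into a moving helicase, and polymerases held by the sliding clamp PCNA copy both strands. Transcription of many of these genes rises before and during S phase under E2F factors, which are released when cyclin-dependent kinases act on Rb proteins. Cdkn1c encodes p57KIP2, an inhibitor of those kinases. In the developing cortex replication takes place in radial glial and intermediate progenitors, and projection neurons have left the cell cycle.

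The replication genes were higher on balance in cKO. Of the 51 tested members 43 had a log2 fold change above 0 and 8 below it, or 84.3% above 0, where 51.3% of all 11551 genes tested were. Their median log2 fold change was 0.28, against 0.01 over all genes tested, and single values ran from -0.34 for Orc2 to 0.998 for Uhrf1. By edgeR's quasi-likelihood test with Benjamini-Hochberg adjustment (threshold 0.05), 2 members rose, Uhrf1 and Mcm5, and 0 fell; 2 of 51 is 3.92%, beside 2.27% of all genes called higher and 0.883% called lower. At an unadjusted p under 0.05, a weaker rule, 16 members were higher (31.4%) and 0 were lower, beside 9.25% and 7.11% of all genes. DESeq2's Wald test called 6 members higher, adding Dut, Rrm2, Mcm6 and Pcna (11.8%, where it called 2.60% of all genes higher), and again 0 lower (1.82% of all genes). In 7 members all 3 cKO libraries lay above all 7 controls (13.7%, against 3.32% of all genes), and in 0 members did they all lie below (2.68% of all genes). The 95% confidence interval excluded a doubling, a log2 fold change of 1, for 36 of the 51 and did not for the other 15, so whether those 15 doubled was not settled by these libraries.

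**Figure D1:**
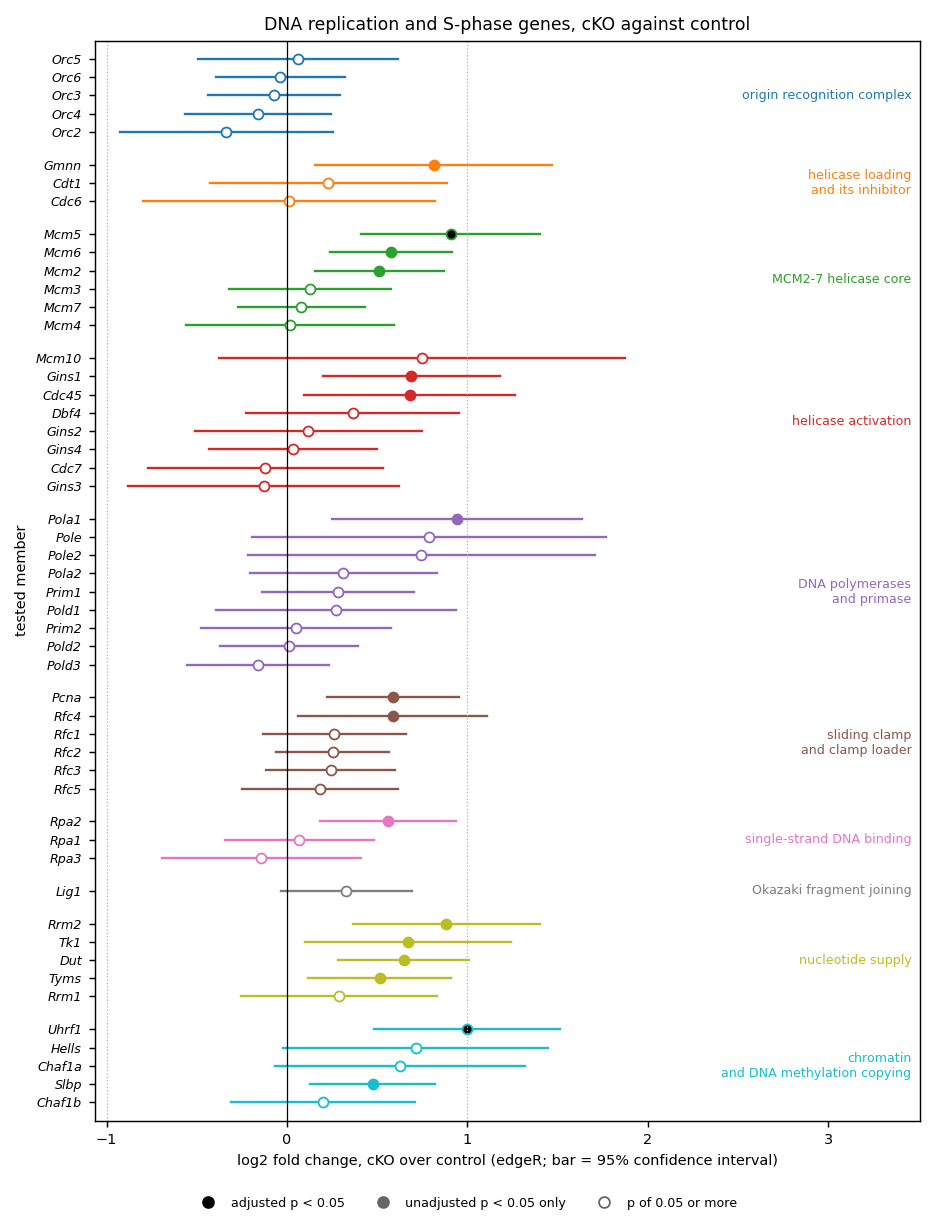
Log2 fold changes of the 51 tested members in blocks by role, cKO over control, with 95% confidence intervals from edgeR; dotted lines mark a change of 1 in either direction. The 2 black points, Uhrf1 and Mcm5, passed the adjusted threshold, the other filled points passed only without adjustment, and the origin recognition complex lies around 0.

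The count of called members depended on single libraries. Without cKO replicate 1 it was 12 of 51 (23.5%, where 2.10% of all genes were called higher; Dut, Gmnn, Hells, Mcm5, Mcm6, Pcna, Rfc4, Rpa2, Rrm1, Rrm2, Tyms and Uhrf1, at log2 fold changes of 0.67 to 1.24), and without cKO replicate 2 or cKO replicate 3 it was 0 (2.32% and 1.62% of all genes). With the replicate number as a block it was also 0 (1.22% of all genes). Among controls it was 0 without replicate 2, 3 or 5, 1 without replicate 1, 4 or 7 and 2 without replicate 6, where 1.77% to 2.13% of all genes were called higher. The median log2 fold change of the members stayed above 0, between 0.18 without cKO replicate 2 and 0.41 without cKO replicate 1.

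Reads on genes ran from 1738220 to 3362487 per library. Cdkn1c, the targeted gene, was read 32, 10 and 18 times in cKO and 116 to 369 times in controls, a mean at 7.78% of the control level (exact permutation test, two-sided, p = 0.0167, the lowest possible with 3 libraries against 7). The labelled tissue was checked with 3 dorsal telencephalic genes (Emx1, Emx2, Lhx2), whose summed level was 424 to 476 CPM (read counts scaled by library size with TMM factors) in cKO and 324 to 622 in controls. Within that sum Lhx2, the most abundant, had a log2 fold change of -0.36 and Emx2 one of 0.91, with Emx2 above all controls in all 3 cKO libraries, and 0 of the 3 passed the adjusted threshold in edgeR. Marker sums were at most 44.97 CPM for microglia and 22.1 for endothelial cells and pericytes in any library. Blood markers reached 2301 CPM in cKO replicate 1, 1499 in control replicate 2 and 1817 in control replicate 5, and at most 65.5 in the other libraries. On reads outside genes the libraries fell into a set of 5 under 10% (cKO replicate 3 and controls 1, 2, 6 and 7) and a set of 5 over 10%.

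The cKO libraries did not act as one in these genes. The summed level of the 53 members was 2543 CPM in cKO replicate 1, 3869 in cKO replicate 2 and 3844 in cKO replicate 3, and in controls it ran from 2538 through a median of 2696 to 2923. Replicates 2 and 3 lay above every control, and replicate 1 lay near the lowest control. In 40 of the 51 tested members (78.4%) replicate 1 was the lowest of the 3 cKO libraries, where that was so for 38.0% of all genes tested. It lay above all 7 controls in 13 members (25.5%, against 23.1% of all genes) and below all of them in 16 (31.4%, against 23.4%). Replicate 2 lay above all controls in 32 members (62.7%, against 20.9%) and below them in 2 (3.92%, against 21.3%), and replicate 3 lay above them in 30 (58.8%, against 18.8%) and below them in 0 (against 16.5%).

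**Figure D2:**
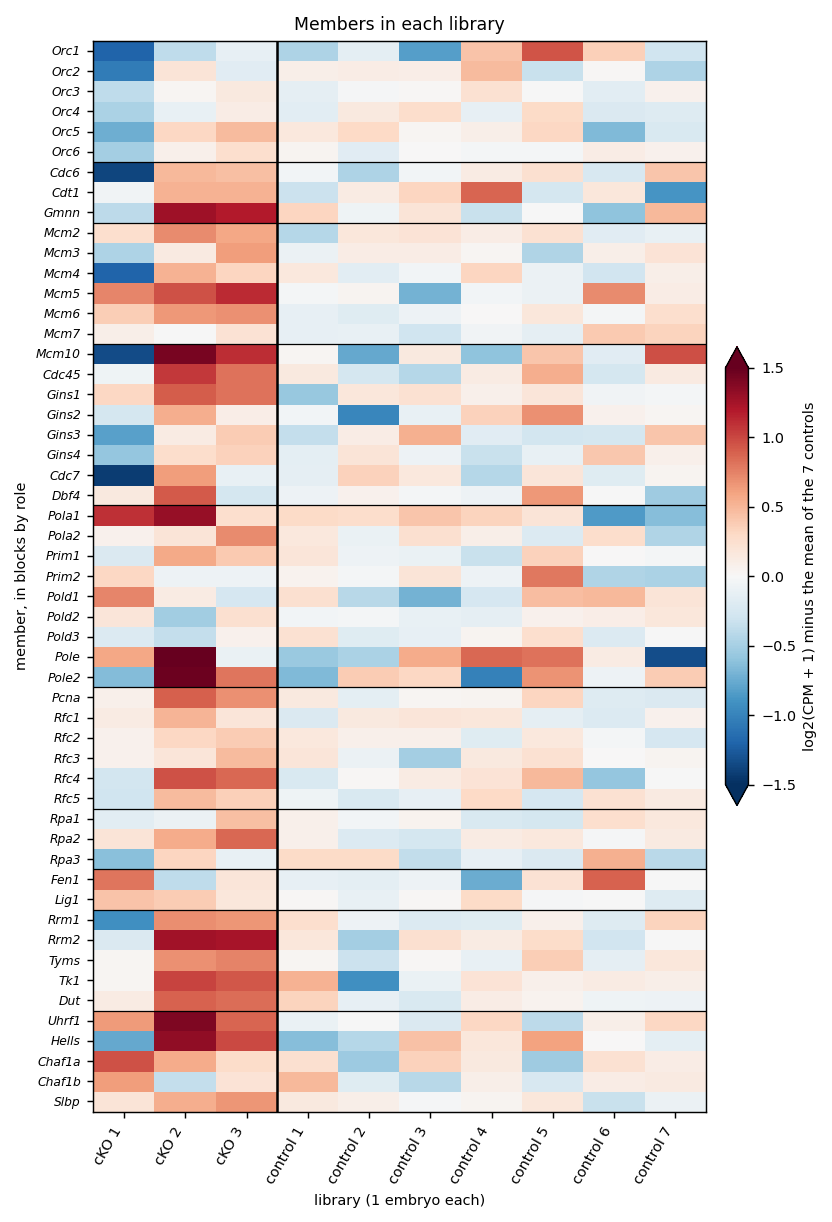
Level of each of the 53 members in each library, as log2(CPM + 1) minus the mean of the 7 controls (color, with the scale ending at 1.5 in either direction), in blocks by role. Columns cKO 2 and cKO 3 are mostly red and column cKO 1 is mixed, with Mcm5, Uhrf1 and Mcm6 red in all 3 cKO columns and Cdc6, Mcm4, Mcm10 and Cdc7 clearly blue in cKO 1.

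Replicate 1 also stood low in the summed level of radial glial progenitor markers, though not in each of them, and high in blood markers. The summed level of 16 radial glial progenitor markers, led by Fabp7 and Dbi, was 2426 CPM in cKO replicate 1, 4045 in replicate 2 and 3409 in replicate 3, and 2871 to 4362 in controls. Of the 15 tested, 0 passed the adjusted threshold, beside 2.27% of all genes called higher and 0.883% lower. Of the 16, 7 were below every control in replicate 1, Fabp7 and Dbi among them, and 2, Nes and Notch1, were above every control. Without the 3 libraries over 1000 CPM of blood markers, 6 members were called higher (Dut, Gmnn, Hells, Pcna, Rfc4 and Rrm2, where 1.66% of all genes were) and the median log2 fold change was 0.40. Uhrf1 and Mcm5 were then not called (edgeR adjusted p = 0.0582 and 0.107). The part of blood RNA and of the share of progenitors in the result was not tested.

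The MCM2-7 ring, the core of the replicative helicase, is built of 6 subunits that join in equal numbers. All 6 had a log2 fold change above 0, and 3 of them, Mcm2, Mcm5 and Mcm6, had all cKO libraries above all controls while Mcm3, Mcm4 and Mcm7 overlapped. Mcm5 (ENSMUSG00000005410.6, plus strand of chromosome 8 of GRCm38, 75109569 to 75128439) had 56.0, 65.4 and 73.8 CPM in cKO and, among controls, from 20.0 through a median of 32.7 to 55.4 CPM. The lowest cKO library was only just above the highest control, replicate 6. The means were 65.1 ± 8.92 (SD, n = 3) and 34.6 ± 10.5 (SD, n = 7), a log2 fold change of 0.91 (standard error 0.24, edgeR adjusted p = 0.0418). With 1 library left out at a time Mcm5 stayed between 0.79 and 1.06, and its edgeR adjusted p stayed under 0.05 without cKO replicate 1 (0.0449) or control replicate 6 (0.00983), and was above it without any 1 of the other 8, at most 0.143 without cKO replicate 3. Mcm5 was also not called with reads thinned to the smallest total (edgeR adjusted p = 0.0775) or with legacy = TRUE (edgeR adjusted p = 0.0586).

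Mcm6 had 82.6, 100.5 and 103.1 CPM in cKO and 56.0 to 76.1 in controls, with a median of 62.6. Mcm2 had 113.3, 155.6 and 142.1 CPM in cKO and 70.0 to 111.2 in controls, with a median of 102.1. Both were separated between genotypes in every library but did not pass the adjusted threshold, with log2 fold changes of 0.57 (standard error 0.16, edgeR adjusted p = 0.0633) and 0.51 (standard error 0.17, edgeR adjusted p = 0.121). Of the overlapping subunits, Mcm7, at 161.6, 151.7 and 176.1 CPM in cKO and 123.0 to 199.97 in controls, had a log2 fold change of 0.08 with a 95% confidence interval from -0.27 to 0.43. Mcm3 was at 0.13 (-0.32 to 0.58) and Mcm4 at 0.02 (-0.56 to 0.59). These 3 intervals lie below 1, so a doubling was outside them. Mcm4 had 22.6 CPM in cKO replicate 1 and 77.2 and 67.0 in the other cKO libraries, where the controls ran from 43.5 to 67.1. Whether the 6 subunits differ from each other in their response was not tested.

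**Figure D3:**
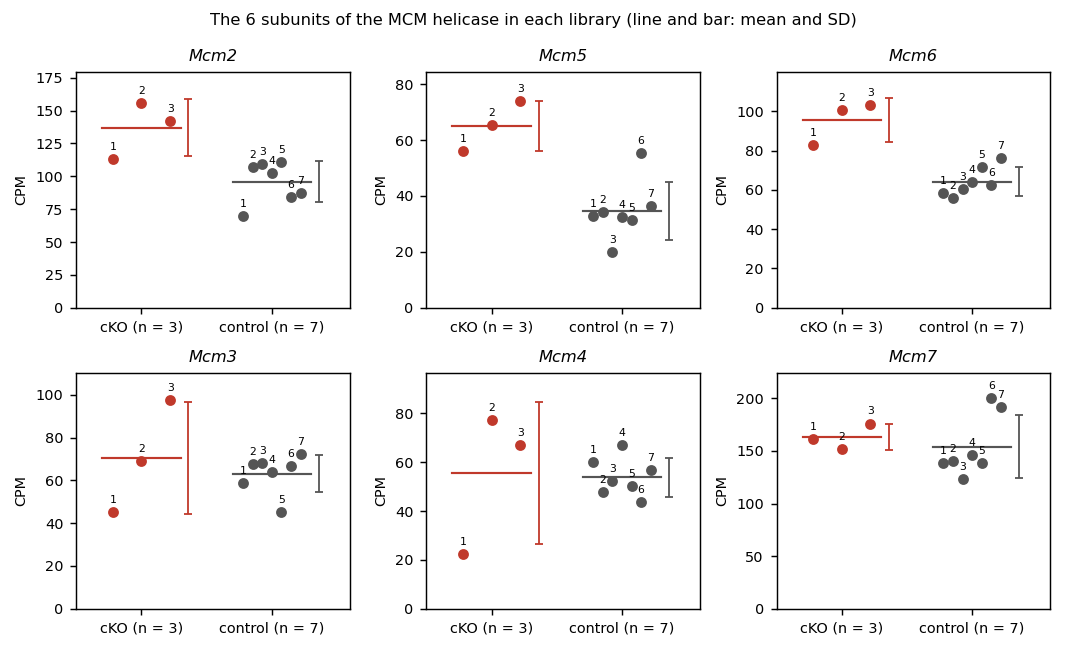
CPM of the 6 MCM2-7 subunits in each library, numbered by replicate, with the group mean as a line and the SD as a bar (cKO red, n = 3; control grey, n = 7). Mcm2, Mcm5 and Mcm6 in the upper row separate the genotypes, and Mcm3, Mcm4 and Mcm7 in the lower row overlap, with cKO replicate 1 the lowest value of Mcm4 at 22.6 CPM.

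The factors that copy chromatin and DNA methylation held the other called member. Uhrf1 (ENSMUSG00000001228.14, plus strand of chromosome 17, 56303321 to 56323486) binds hemimethylated DNA behind the fork and brings in the maintenance methyltransferase. It had 28.3, 48.8 and 33.5 CPM in cKO and from 13.4 through 17.8 to 22.4 CPM in controls, with no overlap. The means were 36.9 ± 10.7 (SD, n = 3) and 18.2 ± 3.41 (SD, n = 7), a log2 fold change of 0.998 (standard error 0.24, edgeR adjusted p = 0.0307). The log2 fold change of Uhrf1 stayed between 0.73 and 1.17 with 1 library left out, and its edgeR adjusted p stayed under 0.05 without cKO replicate 1 (0.0194) or control replicate 4 (0.0413), 6 (0.0451) or 7 (0.0381) and was above it without any 1 of the other 6, at most 0.148 without cKO replicate 2. Uhrf1 was also not called with thinned reads (edgeR adjusted p = 0.0622). Slbp, which binds the stem loop of replication-dependent histone mRNAs, had 83.0, 106.4 and 115.0 CPM in cKO and 57.2 to 81.5 in controls, again without overlap (log2 fold change 0.47, standard error 0.16, edgeR adjusted p = 0.141). Hells, a chromatin remodeler that acts with DNA methylation, split the cKO libraries at 15.9, 71.3 and 56.0 CPM, where controls ran from 17.4 to 42.5, and it was called only without cKO replicate 1 (1.16, edgeR adjusted p = 0.0251) or without the 3 libraries high in blood markers. Chaf1a and Chaf1b, subunits of the chromatin assembly factor that deposits new histones, had log2 fold changes of 0.63 (standard error 0.33) and 0.20 (standard error 0.24), and neither passed.

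The stretches before the transcription starts of 4 members are shown, out of the 7 in which the genotypes did not overlap. They were picked by hand for holding an E2F-type motif or, for Mcm2, as a case without one. Of the others, Rpa2 and Slbp had a window with no match and Gins1 had no window. The 4 stretches therefore do not show how common a match is among the separated members. Each is the 250 bases before a RefSeq start in GRCm38.p6, read 5′ to 3′ on the gene's strand: chr17:56304063-56304312 (plus, before the later of the 2 Uhrf1 starts listed, inside the gene but in no annotated exon), chr8:75109259-75109508 (plus, Mcm5), chr1:128359706-128359955 (minus, Mcm6) and chr6:88898781-88899030 (minus, Mcm2). Capitals mark letters of an E2F-type motif, searched as TTTCCCGC, TTTCGCGC, TTTGCCGC and TTTGGCGC on both strands; matches in opposite directions can overlap.
Uhrf1: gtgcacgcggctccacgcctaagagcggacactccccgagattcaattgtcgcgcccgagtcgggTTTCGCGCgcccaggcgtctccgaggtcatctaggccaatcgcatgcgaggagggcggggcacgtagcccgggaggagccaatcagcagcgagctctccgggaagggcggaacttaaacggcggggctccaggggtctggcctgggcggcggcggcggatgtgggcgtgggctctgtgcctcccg
Mcm5: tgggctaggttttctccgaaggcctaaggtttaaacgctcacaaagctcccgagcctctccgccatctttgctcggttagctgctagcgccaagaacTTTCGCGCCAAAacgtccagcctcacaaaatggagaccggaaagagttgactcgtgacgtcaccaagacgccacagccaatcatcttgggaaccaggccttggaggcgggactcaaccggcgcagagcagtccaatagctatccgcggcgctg
Mcm6: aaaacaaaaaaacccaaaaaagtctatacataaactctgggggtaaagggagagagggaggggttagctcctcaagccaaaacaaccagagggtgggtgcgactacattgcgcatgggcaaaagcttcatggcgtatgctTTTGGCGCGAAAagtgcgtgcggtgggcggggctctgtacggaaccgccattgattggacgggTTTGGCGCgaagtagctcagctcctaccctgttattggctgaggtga
Mcm2: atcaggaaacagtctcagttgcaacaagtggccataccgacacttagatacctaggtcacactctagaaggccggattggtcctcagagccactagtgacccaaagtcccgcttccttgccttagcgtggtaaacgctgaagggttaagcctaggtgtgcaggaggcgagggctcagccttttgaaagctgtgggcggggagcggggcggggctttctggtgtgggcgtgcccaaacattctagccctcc
Mcm5 had an overlapping pair of matches beginning 153 and 149 bases before the start, Mcm6 an overlapping pair at 110 and 106 and a single match at 47, Uhrf1 a single match at 185 before the later start and none in the window of the earlier start, and the Mcm2 stretch had none of these letters. Over windows of 300 bases (250 before and 50 after the start), 45 of the 53 members matched a RefSeq promoter, in 55 windows, and 17 of those 45 held a match (37.8%). Of all 27025 genes with such a window 2.60% did, and of all 32851 windows 2.26%. Both called members, Uhrf1 and Mcm5, held a match. Of the 14 members with a window and an unadjusted p under 0.05, 4 held one, as did 13 of the other 31, and the median log2 fold change was 0.26 over the 16 tested members with a match and 0.31 over the 27 without. The CCAAT box, letters CCAAT on either strand, was in 26 of the 45 (57.8%) and in 41.1% of all genes. A match is only a match of letters, and no binding was measured.

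Nucleotide supply was the role with the most members past the unadjusted threshold, 4 of 5, beside 9.25% of all genes higher by that rule. It was singled out from the 10 roles after the values were seen. Dut removes dUTP so that uracil stays out of DNA. It had 136.9, 233.2 and 225.7 CPM in cKO and 107.1 to 158.2 in controls, with a median of 119.8, so replicate 1 lay inside the control range and the others above it. Its log2 fold change was 0.65 (standard error 0.17, edgeR adjusted p = 0.0502), and it was called by DESeq2 (adjusted p = 0.0189). Rrm2, the small subunit of ribonucleotide reductase, which makes deoxyribonucleotides, had 101.2, 283.6 and 278.7 CPM in cKO and 82.4 to 142.1 in controls, with a median of 128.1. Replicates 2 and 3 were close to each other and far above every control, and replicate 1 was under the control median. Its log2 fold change was 0.88 (standard error 0.25, edgeR adjusted p = 0.0615; DESeq2 adjusted p = 0.0268) with all libraries and 1.24 (edgeR adjusted p = 0.00102) without cKO replicate 1. Rrm1, the large subunit, had 47.9 CPM in replicate 1, below all controls (79.2 to 115.6), and 149.7 and 145.1 in the others (log2 fold change 0.29, standard error 0.26, edgeR adjusted p = 0.645). Rrm1 was at 0.67 (edgeR adjusted p = 0.0475) without cKO replicate 1 and at 0.02 without cKO replicate 2. Tyms, which makes thymidylate, had 73.2, 115.4 and 120.1 CPM in cKO and 56.7 to 92.6 in controls, and Tk1, the thymidine kinase of the salvage route, had 29.3, 58.7 and 55.6 CPM in cKO and 14.6 to 41.7 in controls. Their log2 fold changes were 0.51 (standard error 0.19, edgeR adjusted p = 0.166) and 0.67 (standard error 0.27, edgeR adjusted p = 0.218). The summed level of the 5 genes was 389, 841 and 825 CPM in cKO and 355 to 515 in controls, so replicates 2 and 3 lay above every control and replicate 1 inside their range.

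Among clamp, clamp loader and single-strand binding proteins all but Rpa3 had a log2 fold change above 0. Pcna, the sliding clamp, had 141.7, 250.6 and 217.7 CPM in cKO and 115.6 to 168.8 in controls (log2 fold change 0.59, standard error 0.17, edgeR adjusted p = 0.0787; DESeq2 adjusted p = 0.0429). Pcna has a processed copy, Pcna-ps2, which had 28 to 90 reads per library. Reads that fit both equally well are in neither count, as only reads aligned to 1 place were used. How many Pcna reads were lost in this way is not known, so its level is uncertain. Rfc4, a subunit of the clamp loader, had 44.2, 104.8 and 98.9 CPM in cKO and 35.6 to 75.7 in controls (log2 fold change 0.59, standard error 0.25, edgeR adjusted p = 0.242). Rfc4 was at 0.90 (edgeR adjusted p = 0.0277) without cKO replicate 1 and at 0.35 without cKO replicate 2. The other loader subunits, Rfc1, Rfc2, Rfc3 and Rfc5, lay between 0.18 and 0.26. Rpa2, the middle subunit of the protein that coats single-stranded DNA, had 67.1, 86.3 and 106.5 CPM in cKO and 48.3 to 65.2 in controls, with no overlap (log2 fold change 0.56, standard error 0.18, edgeR adjusted p = 0.108). Its partners Rpa1 and Rpa3 were at 0.07 (standard error 0.20) and -0.14 (standard error 0.26). Whether the subunits differ from each other in their response was not tested.

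The origin recognition complex, which marks where replication can begin, had 0 of 5 tested members past either threshold. In a set this small that is near the shares of all genes. These were 9.25% higher and 7.11% lower at an unadjusted p under 0.05, and 2.27% and 0.883% at the adjusted threshold. Orc2 to Orc6 had log2 fold changes from -0.34 to 0.06 with a median of -0.07, and the smallest adjusted p from edgeR was 0.618, for Orc2. Orc2 had 14.8, 36.2 and 28.0 CPM in cKO and 22.8 to 44.4 in controls. The upper ends of their 95% confidence intervals were 0.25 to 0.62, below a doubling. In all 5 of these subunits cKO replicate 1 was the lowest cKO library, which it was in 38.0% of all genes. Without cKO replicate 1, Orc2 was at -0.03, Orc3 at 0.08, Orc4 at -0.01, Orc5 at 0.37 and Orc6 at 0.16, again with 0 called. The summed level of the complex was 210 CPM in cKO replicate 1, 327 in replicate 2 and 357 in replicate 3, and 290 to 333 in controls, so replicate 1 lay below every control and replicate 3 above every control. Orc1, the subunit whose level follows the cell cycle, had only 2 to 13 reads in any library, under the filter of a mean of 10 reads, and was not tested. Of the loading factors, Cdc6 and Cdt1 were at 0.01 (standard error 0.38) and 0.23 (standard error 0.31), and Gmnn had 20.2, 66.2 and 62.4 CPM in cKO and 17.3 to 38.1 in controls (log2 fold change 0.81, standard error 0.31, edgeR adjusted p = 0.187). Without cKO replicate 1, Gmnn was at 1.21 (edgeR adjusted p = 0.0113).

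Helicase activation was mixed. Gins1, a subunit of the GINS complex, had 28.0, 42.9 and 40.3 CPM in cKO and 14.9 to 26.5 in controls, with no overlap (log2 fold change 0.69, standard error 0.23, edgeR adjusted p = 0.128). Cdc45, which joins GINS and the MCM ring in the active helicase, had 20.2, 45.3 and 38.2 CPM in cKO and 15.6 to 31.4 in controls (log2 fold change 0.68, standard error 0.28, edgeR adjusted p = 0.220). The other GINS subunits, Gins2, Gins3 and Gins4, lay between -0.13 and 0.12. Cdc7, the kinase that triggers firing, was at -0.12 (standard error 0.31) and its activator Dbf4 at 0.36 (standard error 0.28). Mcm10, with 4 to 38 reads per library, had the widest error of all members (log2 fold change 0.75, standard error 0.53), and was at 0.18 without cKO replicate 2 and 1.33 without cKO replicate 1.

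The polymerases had 1 of 9 members past the unadjusted threshold, near the 9.25% of all genes that were higher by that rule. It was Pola1, the catalytic subunit of the polymerase that extends primers. It had 23.6, 27.6 and 12.7 CPM in cKO and 5.39 to 14.4 in controls, and cKO replicate 3, not replicate 1, was the one inside the control range (log2 fold change 0.94, standard error 0.33, edgeR adjusted p = 0.143). Replicate 1 was the lowest cKO library in 3 of these 9 genes, near the 38.0% of all genes. It was the lowest in 5 of 5 nucleotide supply genes and in 6 of 6 of the clamp and its loader. Whether the roles differ in this was not tested. The polymerase delta subunits Pold1, Pold2 and Pold3 were at 0.27, 0.01 and -0.16. Pole and Pole2, the catalytic and second subunits of polymerase epsilon, were at 0.79 and 0.74, with standard errors of 0.47 and 0.46. Without cKO replicate 2 they were at 0.16 and 0.12, and without cKO replicate 1 at 0.94 and 1.21. Pola2, Prim1 and Prim2 were at 0.31, 0.28 and 0.05. Lig1, which seals Okazaki fragments, had 67.8, 65.8 and 56.4 CPM in cKO and 43.7 to 61.6 in controls (log2 fold change 0.33, standard error 0.17, edgeR adjusted p = 0.359). Of the 4 members on chromosome 7, the chromosome exchanged by MADM-7, Lig1, Pold1, Rrm1 and Pold3 had log2 fold changes between -0.16 and 0.33.

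Compared per kilobase of exon, the members spanned a wide range of levels in controls. Pcna was the highest at 56.5 CPM per kilobase, followed by Dut at 52.5, Gins4 at 44.6, Rrm2 at 43.1 and Orc6 at 41.1. Mcm10 and Pole were the lowest at 0.71 CPM per kilobase each. Reads over more than 1 gene were left out of these counts, and the libraries carry no strand. Fen1, which trims Okazaki flaps, had 4 to 17 reads per library and was not tested, but the sum of the strand-specific counts gave 56 to 208 reads, 13.3 times as many in total. Of its exons 1909 bases overlap those of Gm10143. The added reads cannot be assigned to either gene, and Fen1 then reached a log2 fold change of 0.44 (standard error 0.26). The same ratio was 3.85 for Gins2, 1.80 for Chaf1a and 1.52 for Rfc5, which overlap Gse1, Ubxn6 and Wsb2, and those added reads cannot be assigned either. It was at most 1.47 for the rest.

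The comparison was also made within the sets of libraries split by reads outside genes, a split chosen after the data were seen. The median log2 fold change was 0.23 over 1 set (cKO 1 and 2 against controls 3, 4 and 5, over 10% of reads outside genes), with 0 members called, and 0.43 over the other (cKO 3 against controls 1, 2, 6 and 7), with 1 member, Rrm2, called higher. In these sets 0.294% and 0.398% of all genes were called higher. The second set describes cKO replicate 3 alone, which is assumed to vary like the controls, so its call and median say nothing of the genotype beyond that library.

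Further genes of replication were followed in a list of 55: checkpoint and fork protection factors, alternative clamp loaders, histone chaperones, mismatch repair and others. Of the 54 tested, 2 were called higher, Tipin and Mtbp, and 1 lower, Dctd, and 37 had a log2 fold change above 0, with a median of 0.19, beside 2.27%, 0.883% and 51.3% of all genes. Without cKO replicate 1, 4 were called higher and the median was 0.30. Tipin, which protects stalled forks with Timeless, had 95.1, 133.9 and 157.8 CPM in cKO and 66.8 to 101.3 in controls (log2 fold change 0.71, standard error 0.18, edgeR adjusted p = 0.0376). Mtbp, which acts in helicase activation, had 13.2, 14.97 and 11.5 CPM in cKO and 3.91 to 8.63 in controls (log2 fold change 1.23, standard error 0.32, edgeR adjusted p = 0.0467). Brca1 missed the threshold at 9.44, 25.6 and 28.9 CPM in cKO and 5.00 to 11.2 in controls (1.32, standard error 0.36, edgeR adjusted p = 0.0546). In the other direction Dctd, a deaminase that feeds dUMP to Tyms, had 36.8, 27.2 and 37.3 CPM in cKO and 38.8 to 85.0 in controls (log2 fold change -0.91, standard error 0.24, edgeR adjusted p = 0.0446). Cul4a and Chtf8, at -0.66 and -0.42, had the next smallest p on that side and did not pass. The summed level of the 55 was 2694, 3548 and 3374 CPM in cKO and 2953 to 3244 in controls, so cKO replicate 1 was again the lowest and here lay below every control.

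Mitotic genes were read as a reference for the phase that follows, and cKO replicate 1 was again the lowest cKO library. Of 12, 4 were called higher (Cdk1, Ccnb1, Ccnb2 and Cenpf) and all 12 had a log2 fold change above 0, with a median of 0.92, beside 2.27% of all genes called higher and 51.3% above 0. Their summed level was 625 CPM in cKO replicate 1, 1737 in replicate 2 and 1159 in replicate 3, and 504 to 1000 in controls, so replicate 1 lay inside the control range. Without cKO replicate 1, 9 were called higher, beside 2.10% of all genes. Top2a and Cdk1, the most abundant over all libraries, had log2 fold changes of 0.86 (standard error 0.32, edgeR adjusted p = 0.176) and 1.05 (standard error 0.26, edgeR adjusted p = 0.0356). The members' sum divided by the mitotic sum was 4.07, 2.23 and 3.32 in cKO and 2.92 to 5.46 in controls.

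Other cell type lists were read beside these values, where 2.27% of all genes were called higher and 0.883% lower. Projection neuron markers, led by Neurod6 and Neurod2, summed to 3111 to 3196 CPM in cKO and 4667 to 5901 in controls, with 5 of 15 called lower. In this sum the 3 cKO libraries were close to each other, unlike in the sum of the replication genes. Single markers were not, and they went in opposite directions. Over cKO replicates 1, 2 and 3, Neurod6 was at 953, 1159 and 1408 CPM and Neurod2 at 384, 314 and 243. Cajal-Retzius cell markers, led by Reln and Calb2, summed to 578 to 710 CPM in cKO and 16.3 to 176.6 in controls, with 6 of 6 tested called higher. Intermediate progenitor markers, led by Elavl4 and Neurog2, summed to 1098 to 1351 CPM in cKO and 955 to 1693 in controls, with 0 of 9 called. Interneuron markers, led by Sst and Dlx1, summed to 48.1 to 162.9 CPM in cKO and 18.0 to 117.6 in controls, with 1 of 8, Dlx2, called higher. Oligodendrocyte precursor markers reached 28.3 CPM in cKO and 84.2 in controls. The part of these cell types in the levels of the replication genes was not tested.

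**Figure D4:**
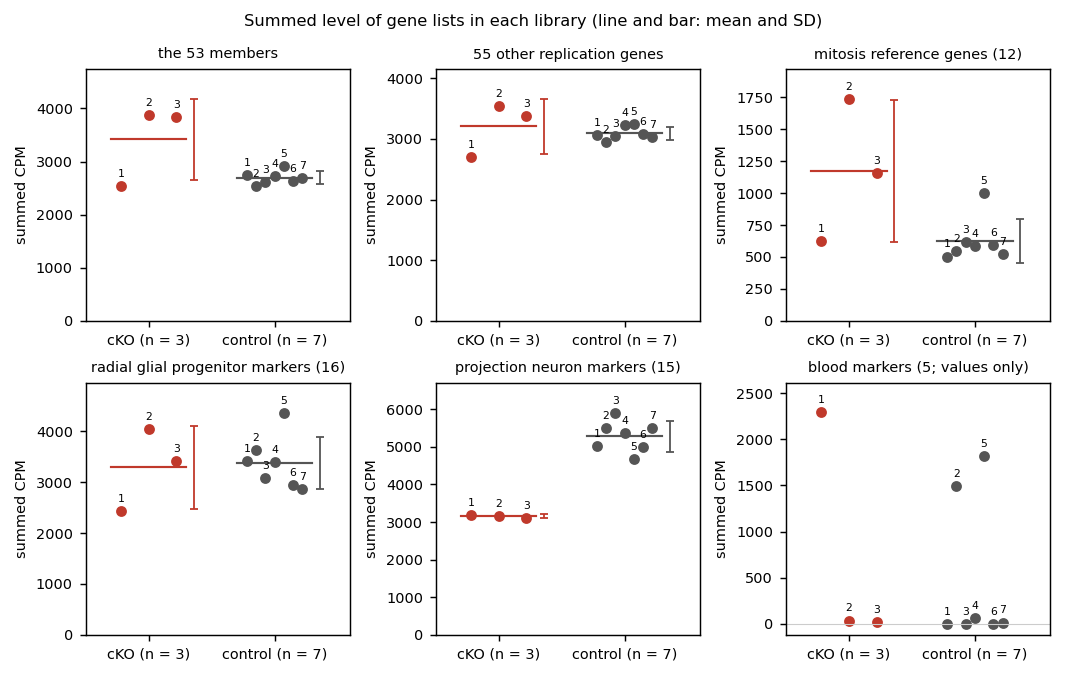
Summed CPM of 6 gene lists in each library, numbered by replicate, with the group mean as a line and the SD as a bar (cKO red, n = 3; control grey, n = 7; for blood markers the values only). In the members, the 55 other replication genes and the radial glial progenitor markers cKO replicate 1 lies near or below the low end of the controls, projection neuron markers are low in all cKO libraries, and blood markers are high in cKO 1 and controls 2 and 5.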

How the data were processed

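RNA-seq libraries (Smart-Seq2) of 400 sorted cells were made from 3 cKO and 7 control E16 embryos, 1 embryo each. The authors aligned reads to GRCm38 with STAR 2.5.0c, used only reads that aligned to 1 place, and deposited raw counts per GENCODE M16 gene, without normalization; bedtools 2.26.0 is also named per the labels. The count that ignores strand was used. Symbols came from GENCODE M21: 50604 of 53379 genes matched by versioned identifier, 2670 without the version and 105 did not match. Genes averaging 10 reads or more per library were tested in edgeR 4.0.16 (TMM, glmQLFit with legacy = FALSE, genotype alone), with Benjamini-Hochberg adjustment over 11551 genes. Standard errors and 95% confidence intervals are those implied by the quasi-likelihood F; CPM use TMM factors. Named members are those with an adjusted p under 0.05, an unadjusted p under 0.05, or cKO libraries outside the control range, and the smallest p of each role; of the further genes, those called and the 3 smallest p in each direction. Hells, Rrm1 and the overlapping MCM subunits, and other members given by value, were named after their values were seen. One marker of the fixed lists is not reported here, and its list was summed without it. Members and lists were chosen with earlier results of these data known. DESeq2 1.42.0 and limma-voom (limma 3.58.1), in R 4.3.3, were alternatives. The fit was tested on simulated data. The 5 settings on legacy = TRUE, on libraries 1 to 3, on the sets by reads outside genes and without libraries high in blood markers were chosen after seeing the data. No molecular identifiers were described, so reads are not independent molecules.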

Additional observations from a re-analysis of the deposited data

Results flagged for a closer look

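Among 67 values tested over the 7 controls (the 53 members, the sums and the ratio to radial glial markers), 7 had a library that stood apart from the other controls; chance alone flags about 1 in 20 such groups. Gins1 was low in control replicate 1, at 14.9 CPM, where the other controls ran from 21.6 to 26.5. Dbf4 was high in control replicate 5, at 39.0 CPM against 16.7 to 25.7 in the others, and so was Prim2, at 76.3 CPM against 30.9 to 49.7. Lig1 was high in control replicate 4, at 61.6 CPM against 43.7 to 50.9. The same control replicate 5, the library with the fewest reads, had the highest sum of mitosis reference genes, 999.7 CPM against 503.6 to 616.9, and of interneuron markers, 117.6 CPM against 18.0 to 44.1. Control replicate 1 had the highest sum of oligodendrocyte precursor markers, 84.2 CPM against at most 14.6.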

How the results depend on the processing

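The members' median log2 fold change was 0.18 to 0.41 with 1 library left out and 0.26 to 0.40 otherwise, leaving aside the sets by reads outside genes, which hold 2 and 1 cKO libraries, and 0 members were called lower under any. The count of members called higher, 2, was 6 with DESeq2 (2.60% of all genes), 4 with no filter (2.64%) and 4 with a mean of at least 50 reads (1.51%), 1 with reads thinned to the smallest total (Rrm2; 1.77%), 1 with legacy = TRUE (Uhrf1; 1.58%), 0 with libraries 1 to 3 of each genotype (0.822%), 0 in libraries over 10% of reads outside genes and 1 in those under, 6 without the libraries high in blood markers, and 0 to 12 with 1 library left out. Genes called, 364, were 961 with no filter, 194 at 50 reads, 144 with libraries 1 to 3, 47 and 61 in the sets over and under 10%, and 271 to 424 with 1 library left out. Cdkn1c was at 6.04 to 9.61% of controls with 1 library left out. The causes were not tested, beyond the fewer libraries or genes that some alternatives hold.

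Replicate numbers did not pair the libraries (correlations of deviations 0.046, -0.10 and -0.21). With the replicate block 213 genes and 0 members were called, and Orc5 was -0.11, Mcm4 -0.0365 and Prim2 -0.011.

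The sign of a log2 fold change turned for 20 members, each at most 0.36 in size with all libraries. In limma-voom Orc5 was -0.009, Cdc6 -0.24, Mcm4 -0.18, Gins4 -0.014 and Pold2 -0.0225. With no filter Cdc6 was -0.0026 and Pold2 -0.013. At 50 reads Orc6 was 0.0026. With thinned reads Cdc6 was -0.0059 and Prim2 -0.0078. With reads outside genes as a covariate Orc6 was 0.0012 and Prim2 -0.058. With libraries 1 to 3 Orc5 was -0.0798, Orc6 0.0051 and Prim2 -0.0033. In the set over 10% Orc5 was -0.26, Cdc6 -0.31, Cdt1 -0.15, Mcm3 -0.058, Mcm4 -0.19, Gins2 -0.12, Prim2 -0.18, Pold2 -0.041 and Rpa3 0.16. In the set under 10% Orc3 was 0.19, Orc4 0.195, Orc6 0.23, Gins3 0.39, Dbf4 -0.16, Pold1 -0.455 and Pold3 0.084. Without the libraries high in blood markers Orc3 was 0.068, Orc4 0.0635, Orc6 0.12, Gins3 0.17, Cdc7 0.40, Pold1 -0.0855, Pold2 -0.098, Rpa3 0.10 and Chaf1b -0.17. With 1 library left out Orc3 ran from -0.18 to 0.076, Orc5 -0.17 to 0.37, Orc6 -0.20 to 0.16, Cdc6 -0.32 to 0.49, Mcm3 -0.17 to 0.37, Mcm4 -0.33 to 0.41, Gins2 -0.15 to 0.31, Gins3 -0.40 to 0.20, Gins4 -0.13 to 0.29, Cdc7 -0.72 to 0.30, Dbf4 -0.041 to 0.58, Prim2 -0.10 to 0.17, Pold1 -0.075 to 0.47, Pold2 -0.11 to 0.21, Rpa1 -0.15 to 0.18, Rpa3 -0.42 to 0.085 and Chaf1b -0.091 to 0.41.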
